A study of Arabidopsis thaliana with 6 samples.

Results

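Among the 33560 genes measured in *Arabidopsis* root tips, 119 were clearly lower in the *bron-2* mutant than in the wild type. They were chosen by their measured values: the 6 libraries had to average 5 FPKM or more, with every *bron-2* library below every wild type library, and with a ratio of (mean *bron-2* + 1) to (mean wild type + 1) of at most 0.70. FPKM is the number of fragments of a gene scaled to the length of its transcript and to all mapped fragments of the library, so levels of different genes can be set side by side. Of the 12197 genes that reached 5 FPKM on average, 119 (0.976%) met the rule, and the mirrored rule for higher genes was met by 50 (0.41%). Because the rule used the genotype difference in all 6 libraries, the difference itself is given below as values and not as a test.

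Root tips of about 2 mm were taken from 5-day-old seedlings grown on 1x MS medium with sucrose in long days of 16 h of light. The wild type was the accession Columbia-0 (WT), and *bron-2* is a T-DNA insertion line in AT1G75710, the gene of the zinc finger protein BRONTOSAURUS (BRON). Each genotype had 3 biological replicates, each a pool of seedlings from several plates. Only 1 mutant line was sequenced, so what belongs to BRON and what belongs to this line cannot be told apart. The FPKM values of a library summed to between 791546 and 812383, and log2(FPKM + 1) correlated between libraries with r from 0.990 to 0.995. Relative depth, read from the steps between the lowest values, was 0.967 to 1.1 in the WT and 1.2 to 1.25 in *bron-2*, with WT replicate 1 set to 1. The number of reads is not known from FPKM.

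BRON is a C2H2 zinc finger transcription factor that the study placed in the response to brassinosteroids, steroid hormones that control growth and cell division in plants. A root tip holds dividing stem cells, the root cap and the first elongating and differentiating cells. In such tissue, wall-modifying enzymes loosen and rebuild the expanding walls, high-affinity transporters take up nitrogen and metals, and flavonols, made from phenylpropanoids by chalcone synthase, chalcone isomerase and later enzymes, modulate auxin transport and reactive oxygen.

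BRON itself lies on chromosome 1 (chr1:28428671-28431339, plus strand, TAIR10.1) and was a member. Its level was 17.9, 16.1 and 17.3 FPKM in the WT libraries, given here and below in the order of replicates 1, 2 and 3, against 1.25, 0.925 and 1.1 FPKM in the mutant. The means were 17.1 ± 0.94 and 1.09 ± 0.163 FPKM (SD, n = 3), so that *bron-2* kept 6.38% of the WT level, and the libraries of each genotype lay close together. The targeted gene was thus low in every library labelled *bron-2*.

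Most of the differences were modest. The ratio of the members had a median of 0.641, while the median over all genes of at least 5 FPKM was 1.0. Only 15 members were at or under 0.50, 23 were between 0.50 and 0.60, and 81 were above 0.60. In whole root tips, fewer cells of a type and less RNA per cell cannot be told apart. The members had a median WT level of 15.7 FPKM, with a range of 6.14 to 225 FPKM, and 30 of them were under 10 FPKM in the WT. The floor, which is set on the mean of both genotypes, kept another 111 genes out that met the rest of the rule.

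**Figure D1:**
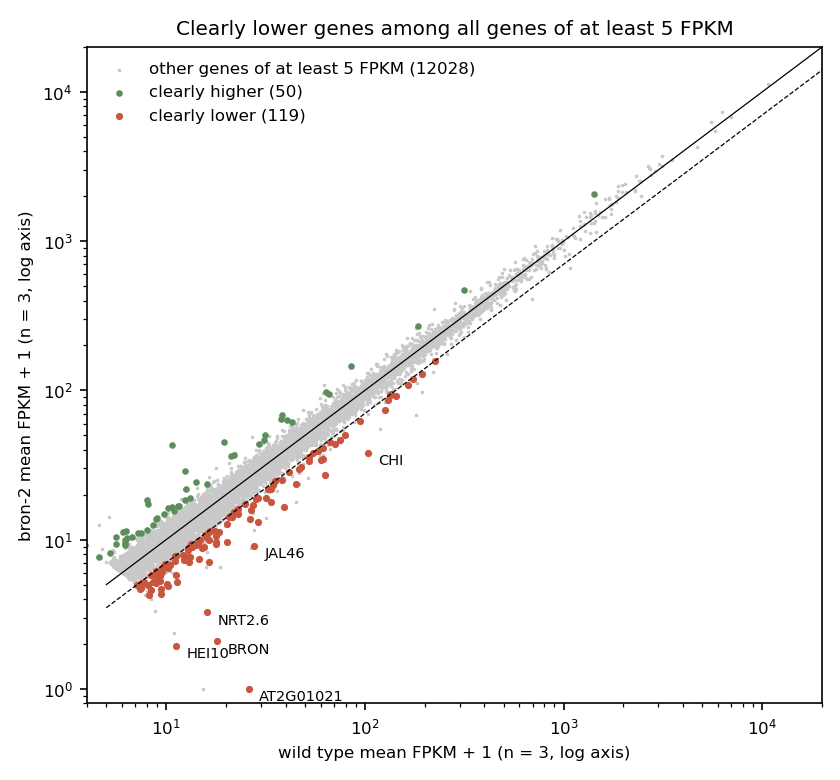
Mean FPKM + 1 of the WT (horizontal) against mean FPKM + 1 of *bron-2* (vertical), both on log axes, n = 3 libraries each, for all 12197 genes of at least 5 FPKM. The solid line marks equal levels and the dashed line a ratio of 0.70; the 119 members (red) lie at or under the dashed line, most of them close to it, with BRON, HEI10, NRT2.6 and AT2G01021 far below, and the 50 clearly higher genes (green) lie above the solid line.

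At the threshold, the 3 members just inside were AT3G19030 with a ratio of 0.6995, FLA10 with 0.6998 and CP1 with 0.6998. The 3 genes just outside were CRF4 with 0.7001, LNK2 with 0.7004 and PERK9 with 0.7008. The separation of the genotypes was small in many members. In 35 of the 119 the lowest WT library was at most 1.1 times the highest *bron-2* library (on FPKM + 1), and in 9 it was at least 1.5 times.

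Groups that do not overlap were frequent, since 1079 of the 12197 genes (8.85%) had every *bron-2* library below every WT library, and 924 (7.58%) had every *bron-2* library above. Within the WT, members also varied more than other genes, though the rule drew on the same WT values and levels were not matched. The median SD of log2(FPKM + 1) was 0.238 in the WT and 0.165 in *bron-2* for members, and 0.127 and 0.116 for the other genes of at least 5 FPKM. WT replicate 2 was the highest WT library for 53 of the 119 members, where it was the highest for 22.9% of the other genes. That count too comes from values the rule used. With each of the 6 libraries left out in turn, 55 of the 119 members met the rule every time. Without WT replicate 2, 83 of them still met it. The rule as a whole took in 189 genes without WT replicate 1, 117 without WT replicate 2 and 253 without WT replicate 3. It took in 184, 147 and 182 genes without *bron-2* replicates 1, 2 and 3. Groups that do not overlap are easier to reach with fewer libraries, so a rise alone says nothing about the library left out.

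Behind AT2G01021, the lowest ratio of all, stands a very short sequence. AT2G01021 encodes an uncharacterized protein and was at 16.2, 40.6 and 18.2 FPKM in the WT and listed at 0 in all 3 *bron-2* libraries. Its annotated exon has 102 bases, and every 31-base window of it occurs elsewhere in the TAIR10.1 assembly, so its reads cannot be assigned to this locus alone. This held for no other member. A share of at least 10% of repeated windows was found in 5 members: AT2G01021, AT1G52905 (46.6%), the defensin-like AT3G59930 (31.1%), LHB1B2 (29.5%) and AT3G49420 (28.9%), while 92 members had under 1%.

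HEI10, a RING protein known for its part in meiotic crossing-over, was the member of lowest ratio after AT2G01021 and BRON. It was at 10.8, 9.56 and 10.2 FPKM in the WT and at 0.572, 1.14 and 1.15 FPKM in *bron-2*, a ratio of 0.175. The genotypes were far apart next to the spread within either of them. HEI10 lies on the same chromosome as BRON and overlaps AT1G53480 and AT1G53500 on the opposite strand and AT1G07887 on the same strand. In all, 28 members (23.5%) overlap an annotated gene on the opposite strand, against 27.7% of the other nuclear genes of at least 5 FPKM. PBP1, WRKY40, UGT89C1 and LHB1B2 are among these 28. Whether the counting used strand is not given in the sources used here, so their reads cannot be told apart from those of the partner.

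**Figure D2:**
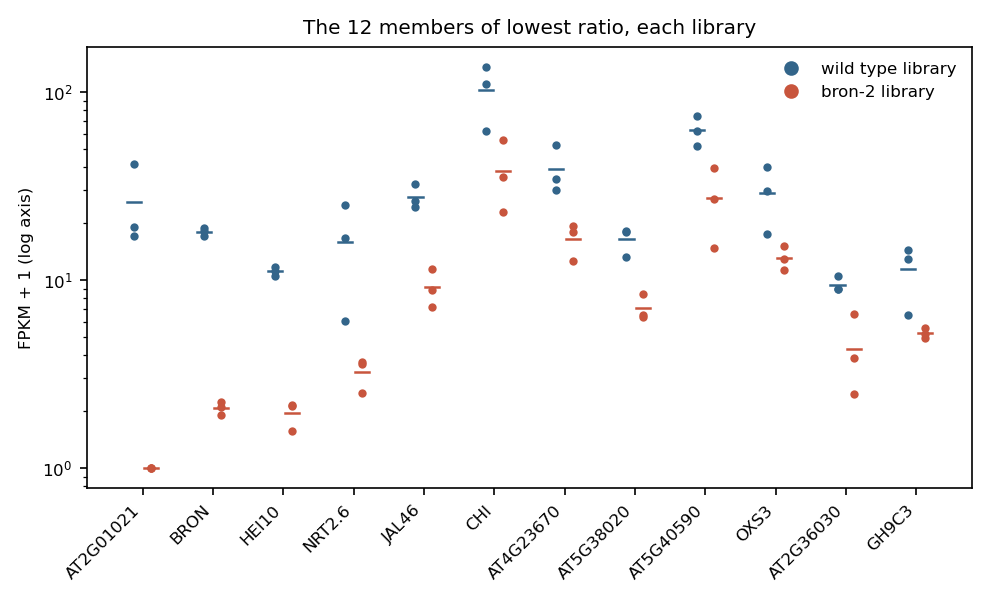
FPKM + 1 (vertical, log axis) of the 12 members of lowest ratio in each library, WT in blue and *bron-2* in red, with a bar at the mean of 3. BRON and HEI10 show tight, widely separated groups, while NRT2.6, CHI and OXS3 vary strongly within the WT and GH9C3 has 1 low WT library near the *bron-2* values.

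By their known or annotated roles, grouped after the values were seen, the members comprised 21 signalling, ubiquitin and stress-related proteins, 18 proteins of the cell wall, cuticle and suberin, 14 transcription factors and chromatin proteins, 12 other enzymes and transport proteins, 9 of nitrogen, metal and phosphate nutrition, and 1 clock-related protein. Ribosome biogenesis and translation, lectins with defensins and protease-related proteins, and flavonoid and other specialized metabolism had 7 members each, photosystem and chlorophyll proteins 5. The remaining 18 were uncharacterized or non-coding, and 116 of the 119 are annotated as protein-coding. The lowest median ratios were those of flavonoid and other specialized metabolism (0.566) and of lectins, defensins and protease-related proteins (0.569), and the highest that of ribosome biogenesis and translation (0.686).

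**Figure D3:**
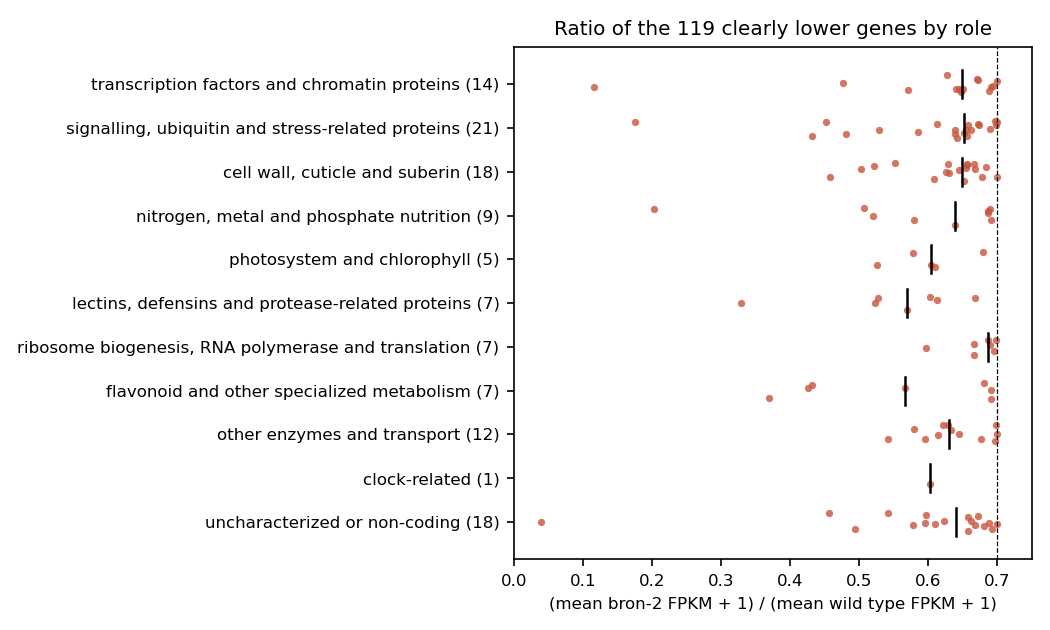
Ratio of (mean *bron-2* FPKM + 1) to (mean WT FPKM + 1) for each of the 119 members (points), by role, with a bar at the median of each role and a dashed line at 0.70. Most points lie between 0.60 and 0.70, those of the lectins and of specialized metabolism reach lower, and each of the roles of transcription, signalling, nutrition and uncharacterized genes has 1 member far lower.

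Gene lists for 14 pathways and processes were also counted, 245 genes in all, of which 31 were members. They were drawn up with earlier results of these data known. Over all 17107 genes that averaged 1 FPKM or more, limma on log2(FPKM + 1) called 985 lower in *bron-2* (5.76%) by unadjusted p-values under 0.05, and 689 higher (4.03%), which are the calls used for the lists below. With Benjamini-Hochberg adjustment limma called 9 lower (0.0526%). This count was 21, 6 and 24 without WT replicates 1, 2 and 3, and 6, 7 and 7 without *bron-2* replicates 1, 2 and 3. The median log2 fold change of all tested genes was -0.001. Of the 191 tested list genes 71 were called lower, and 46 without WT replicate 2. After Benjamini-Hochberg adjustment 1 list gene, itself a member, stayed past 0.05 and all other list calls were lost. The list counts include the members, which the rule chose on the same contrast, and nothing is read from those.

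Flavonol synthesis had CHI and UGT89C1 as members. CHI (chalcone isomerase, AT3G55120) closes the flavanone ring. It was at 135, 110 and 61.4 FPKM in the WT and at 54.8, 34.4 and 22.1 FPKM in *bron-2*, a ratio of 0.369. UGT89C1, which adds rhamnose to the 7-O position of flavonols, was at 74, 67.1 and 40.7 FPKM in the WT and at 39.2, 33.8 and 28.7 FPKM in *bron-2*, a ratio of 0.566. For CHI and UGT89C1, replicate 1 was the highest and replicate 3 the lowest in both genotypes. AT4G23670, of the polyketide cyclase and lipid transport family, was at 29.2, 33.5 and 51.3 FPKM in the WT and at 11.6, 17 and 18.3 FPKM in *bron-2*, with replicate 3 the highest in both genotypes. AT5G38020, annotated as a methyltransferase, was at 12.2, 17.1 and 17.2 FPKM in the WT and at 5.53, 7.46 and 5.33 FPKM in *bron-2*. Among the other flavonol enzymes, CHS and FLS1 were lower on average but overlapped between the genotypes. CHS (chalcone synthase) was at 1250, 1190 and 774 FPKM in the WT and at 795, 693 and 485 FPKM in *bron-2*, a ratio of 0.614. FLS1 (flavonol synthase) was at 255, 197 and 88.2 FPKM in the WT and at 98.9, 59.7 and 44.2 FPKM in *bron-2*, a ratio of 0.378. In both genes the lowest WT library lay below the highest *bron-2* library. Of the 14 tested genes of the flavonol and flavonoid list, 11 were called lower and 0 higher, with a median log2 fold change of -0.77. Their transcriptional activator MYB12 had a ratio of 1.06, and 0 of the 3 tested flavonoid transcription factors were called in either direction. Of the 11 tested phenylpropanoid enzymes 3 were called lower, and none was a member. PAL1, the first enzyme of the pathway, had a ratio of 0.743 with groups that did not overlap.

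The windows before the annotated start of CHI and UGT89C1 are shown because these are the flavonoid members, with matches to the MYB-type motif ACCAAAC, its variant ACCTAAC or its variant ACCTACC (either strand) in capitals. Each is the 250 bases before the start in RefSeq's TAIR10.1, 5′ to 3′ on the gene's strand, at chr3:20431598-20431847 (minus strand) for CHI and chr1:1821895-1822144 (minus strand) for UGT89C1.
CHI: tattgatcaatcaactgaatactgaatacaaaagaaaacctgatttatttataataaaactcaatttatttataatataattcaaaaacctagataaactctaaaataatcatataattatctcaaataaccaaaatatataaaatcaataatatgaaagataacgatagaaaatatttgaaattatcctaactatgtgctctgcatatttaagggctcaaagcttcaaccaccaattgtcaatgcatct
UGT89C1: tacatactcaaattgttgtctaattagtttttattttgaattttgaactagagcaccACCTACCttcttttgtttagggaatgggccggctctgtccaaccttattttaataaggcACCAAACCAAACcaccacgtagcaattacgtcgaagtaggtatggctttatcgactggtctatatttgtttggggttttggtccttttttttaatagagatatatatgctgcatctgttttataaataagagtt
UGT89C1 holds 2 overlapping copies of ACCAAAC and 1 of ACCTACC, and CHI holds none of the 3 motifs in this window. ACCAAAC was found before 11 of the 119 members (9.24%) and before 7.87% of the 37897 nuclear genes with such a window. For ACCTACC the shares were 2.52% and 1.12%. The variant ACCTAAC was less frequent before the members, at 0.84% against 2.49% of the nuclear genes. Among genes of at least 5 FPKM the share was 8.64% for ACCAAAC, 1.2% for ACCTACC and 2.34% for ACCTAAC. None of these shares was tested.

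Nitrogen, metal and phosphate nutrition had 9 members, with a nitrate transporter at the lowest ratio. NRT2.6, of the family of high-affinity nitrate transporters, was at 5.09, 15.8 and 24 FPKM in the WT and at 2.59, 2.65 and 1.52 FPKM in *bron-2*, a ratio of 0.203. The WT libraries spanned a wide range, with WT replicate 1 far below the others. AMT1;2, an ammonium transporter, was at 9.65, 15.2 and 16.3 FPKM in the WT and at 6.19, 6.44 and 6.75 FPKM in *bron-2*. LBD39, a LOB-domain repressor of nitrogen-responsive genes that is counted above with the transcription factors, was at 44.4, 61.4 and 55.2 FPKM in the WT and at 42.1, 37.7 and 32 FPKM in *bron-2*. NRT2.6, AMT1;2 and LBD39 were the members on the nitrate and ammonium list. There 6 of 20 tested genes were called lower and 1 higher. The other nutrition members were the nicotianamine synthases NAS4 and NAS2, which make a metal chelator, the phosphate-sensing SPX1, GDU1, which promotes amino acid export, the asparaginase ASPGB1, AT5G03380, annotated with heavy metal transport, and AT4G21140, annotated as copper-binding. NAS4 was at 7.45, 9.08 and 5.19 FPKM in the WT and at 1.57, 3.49 and 4.79 FPKM in *bron-2*. Of the 17 tested iron uptake genes, NAS4 was the 1 called lower and 2 were called higher, with a median log2 fold change of 0.

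Transcripts known from rapid responses to touch, wounding and elicitors made up 8 members. Their list, drawn up with earlier results known, held 38 genes, 22 of them at 5 FPKM or more. Over all genes of that level, 0.976% were members. WRKY22, which acts in flagellin-triggered immunity, was at 8.44, 9.94 and 9.21 FPKM in the WT and at 5.17, 3.82 and 2.59 FPKM in *bron-2*. PBP1, a calcium-binding partner of the PINOID kinase, was at 22.2, 21.1 and 14.3 FPKM in the WT and at 12.5, 6.82 and 6.74 FPKM in *bron-2*. NUDT7, a nudix hydrolase that restrains defence, was at 37.8, 62.3 and 40.6 FPKM in the WT and at 33.2, 29.3 and 26.3 FPKM in *bron-2*. In PBP1 and NUDT7 the lowest WT library was close to the highest *bron-2* library, and NUDT7 was highest in WT replicate 2. WRKY40, WRKY54, ERF6, PUB23 (a U-box ubiquitin ligase of immune signalling) and the zinc finger protein SZF1 had ratios from 0.57 to 0.693. Of 28 tested genes of the list, 13 were called lower, the 8 members among them, and 0 higher. The median log2 fold change was -0.52. The touch gene TCH4 had a ratio of 1.08 and ZAT12, a stress-induced zinc finger protein, a ratio of 1.05. Beyond the list, the signalling members included the calcium-binding CML11 and CP1, the receptor-like kinase WAKL5 (ratio 0.612, on a list of wall-associated kinase-like receptors of which 3 of 4 tested genes were called lower and 0 higher), MLO12, the RING ligase RMA1 and OXS3, an oxidative stress protein. AT5G40590, a C1 domain protein, was at 50.6, 73.7 and 61.2 FPKM in the WT and at 38.6, 26.1 and 13.8 FPKM in *bron-2*. AT2G44670, with a DUF581 domain, was among the most abundant members, at 155, 156 and 117 FPKM in the WT and at 115, 79.5 and 79.3 FPKM in *bron-2*. OXS3 was at 16.6, 38.8 and 28.8 FPKM in the WT and at 14.2, 10.3 and 11.9 FPKM in *bron-2*. WT replicate 2 was the highest library of AT5G40590 and OXS3, and WT replicate 1 the lowest WT library of OXS3.

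The windows before 4 of these genes are shown for the W-box forms TTGACC and TTGACT, which WRKY proteins bind, and for CGTGTG, a sequence bound by calmodulin-binding CAMTA factors (either strand, in capitals). They span the 250 bases before the start at chr1:30383311-30383560 (plus strand) for WRKY40, chr3:20775970-20776219 (plus strand) for SZF1, chr4:7486975-7487224 (plus strand) for NUDT7 and chr2:15084560-15084809 (minus strand) for PUB23.
WRKY40: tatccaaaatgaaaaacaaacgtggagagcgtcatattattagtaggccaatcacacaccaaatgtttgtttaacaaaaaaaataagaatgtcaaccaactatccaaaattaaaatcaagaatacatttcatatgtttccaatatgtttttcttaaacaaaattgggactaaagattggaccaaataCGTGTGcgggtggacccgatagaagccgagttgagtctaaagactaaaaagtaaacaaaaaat
SZF1: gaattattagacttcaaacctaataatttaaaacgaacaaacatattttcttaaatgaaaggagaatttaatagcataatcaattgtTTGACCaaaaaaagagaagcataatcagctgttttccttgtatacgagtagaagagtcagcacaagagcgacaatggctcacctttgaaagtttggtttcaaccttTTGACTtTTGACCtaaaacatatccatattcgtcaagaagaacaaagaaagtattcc
NUDT7: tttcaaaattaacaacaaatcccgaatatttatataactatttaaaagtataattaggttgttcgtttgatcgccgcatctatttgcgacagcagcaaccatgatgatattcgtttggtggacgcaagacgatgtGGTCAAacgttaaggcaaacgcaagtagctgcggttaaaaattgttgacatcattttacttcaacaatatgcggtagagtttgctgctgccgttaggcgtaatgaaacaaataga
PUB23: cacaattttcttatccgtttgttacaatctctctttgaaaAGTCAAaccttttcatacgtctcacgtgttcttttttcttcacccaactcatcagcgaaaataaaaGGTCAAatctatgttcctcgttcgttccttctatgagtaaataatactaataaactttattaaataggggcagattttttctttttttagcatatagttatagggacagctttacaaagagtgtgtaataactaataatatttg
SZF1 holds 3 W-box forms, 2 of them separated by 1 base. WRKY40 holds CGTGTG and no W-box form in this window. TTGACC was found before 16.8% of the members and 11.5% of all nuclear genes, TTGACT before 27.7% and 18.5%, and CGTGTG before 10.9% and 5.06%. Among genes of at least 5 FPKM these shares were 12.6%, 19.3% and 5.45%. CGCGT and CGTGCG were also counted and were less frequent before the members, at 3.36% and 0.84%. All nuclear genes had 6.65% and 1.39%, and genes of at least 5 FPKM 7.4% and 1.87%. These are shares of letters and were not tested.

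Cell wall members were among the most abundant. DUF642A and DUF642B encode secreted wall proteins with a DUF642 domain. DUF642A was at 185, 175 and 133 FPKM in the WT and at 104, 106 and 112 FPKM in *bron-2*. DUF642B was at 200, 194 and 183 FPKM in the WT and at 137, 125 and 122 FPKM in *bron-2*. Both genes lie next to each other on chromosome 2, 1094 bases apart, and their proteins of 370 residues are 79.2% identical. Of the pectin methylesterase genes, which alter pectin charge, PME20 was at 75.3, 87.9 and 71.9 FPKM in the WT and at 58, 48.6 and 40.2 FPKM in *bron-2*, and PME25, with a WT mean of 174 FPKM, had a ratio of 0.677. The endoglucanase GH9C3 was at 13.5, 12 and 5.54 FPKM in the WT and at 4.17, 3.89 and 4.55 FPKM in *bron-2*, so that WT replicate 3 was close to the mutant. MAN7, an endo-mannanase, had a ratio of 0.502, BBE8, a berberine-bridge-like oxidase, 0.625 and SKS15, an SKU5-like protein, 0.666. Not every wall gene was lower: on the wall list 9 of 15 tested genes were called lower and 3 higher. The 9 include the 8 members on the list, and the 3 are clearly higher genes, so these calls mostly repeat the selection. XTH16, EXPA8 and BXL1, a xyloglucan-modifying enzyme, an expansin and a xylosidase, had ratios of 1.55, 1.72 and 1.71 with groups that did not overlap. Surface lipid genes among the members were GPAT4, which makes cutin precursors, the transporter ABCG1 and the lipid transfer protein LTPG1, with ratios of 0.551, 0.608 and 0.683.

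Of the 7 lectins, defensin-like and protease-related members, 5 were highest in WT replicate 3. JAL46, a jacalin-type mannose-binding lectin, was at 23.5, 25.2 and 31.6 FPKM in the WT and at 6.18, 10.4 and 7.87 FPKM in *bron-2*, a ratio of 0.329. NSP3, a nitrile specifier that directs the breakdown of glucosinolates, was at 75, 76.2 and 58.4 FPKM in the WT and at 45, 42.6 and 39.7 FPKM in *bron-2*. JAL35 had a ratio of 0.603, the defensin-like AT3G59930 of 0.569 and DR4, a protease inhibitor, of 0.523. Of 17 tested genes in the jacalin, nitrile specifier and PYK10 list, 9 were called lower and 0 higher. PYK10 itself, the abundant beta-glucosidase of endoplasmic reticulum bodies, was at 2490, 2560 and 2340 FPKM in the WT and at 1870, 2100 and 2080 FPKM in *bron-2*, a ratio of 0.819. On the list of indole glucosinolate synthesis, 5 of 12 tested genes were called higher and 0 lower.

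Photosystem members were few but measurable in these root tips. LHB1B2, a light-harvesting protein of photosystem II, was at 114, 132 and 132 FPKM in the WT and at 69.6, 80.7 and 67 FPKM in *bron-2*. PSBS, which dissipates excess light energy, was at 42.3, 33 and 23.3 FPKM in the WT and at 19.8, 17 and 13.5 FPKM in *bron-2*. LHCB3, PSB28 and CHLH, a subunit of magnesium chelatase, had ratios of 0.609, 0.604 and 0.679. Of 13 tested genes of the photosynthesis and chlorophyll list, 4 were called lower and 0 higher. The 4 were the members PSBS, LHB1B2 and CHLH and the green tissue marker RBCS1A. Of the green tissue markers, RBCS1B and RBCS2B were listed at 0 in all 6 libraries, while CAB1, which made up most of their sum, was at 19.3 to 29.6 FPKM in the WT and 20.4 to 26.5 FPKM in *bron-2*. RBCS1A, CAB3 and LHCA1 had ratios of 0.631, 0.737 and 0.827, and CAB2 and RBCS3B of 0.997 and 1.09, all with overlapping groups. RBCS1A averaged 3.99 FPKM in the WT and 2.15 FPKM in *bron-2*. Of the 8 shoot markers 4 were under 1 FPKM, and their summed level was 28 to 42.5 FPKM in the WT and 26 to 35.6 FPKM in *bron-2*; their part in the difference was not tested.

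In the clock, LNK1, a transcriptional coactivator, was at 16, 10.8 and 8.38 FPKM in the WT and at 6.24, 7.48 and 6.24 FPKM in *bron-2*. Of the 17 clock genes tested, 6 were called lower and 0 higher, among them CCA1 and LHY, which were under 5 FPKM on average and thus could not be members. CCA1 had a ratio of 0.511, while the evening genes TOC1 and LUX had ratios of 1.11 and 1.03. Ribosome biogenesis members were FIB2, a fibrillarin that methylates ribosomal RNA, with a ratio of 0.695, the ribosomal RNA processing genes RID2 and AT3G24080 (KRR1 family) with 0.666 and 0.698, and the RNA polymerase subunit gene RPC14 with 0.689. All 7 of this role were between 0.596 and 0.698. Other members with known roles in the root were TAA1, an aminotransferase of auxin synthesis, with a ratio of 0.696, AIL6, an AINTEGUMENTA-like regulator of meristems, with 0.65, and ANL2, a homeodomain protein of the epidermis, with 0.69. MSRB6, a methionine sulfoxide reductase on the sulfate list, was at 20.1, 17.7 and 12.8 FPKM in the WT and at 9.82, 7.65 and 8.59 FPKM in *bron-2*. On that list 3 of 9 tested genes were called lower and 0 higher. The heat shock and endoplasmic reticulum chaperones had no member, with 3 of 11 tested genes called lower and 2 higher.

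**Figure D4:**
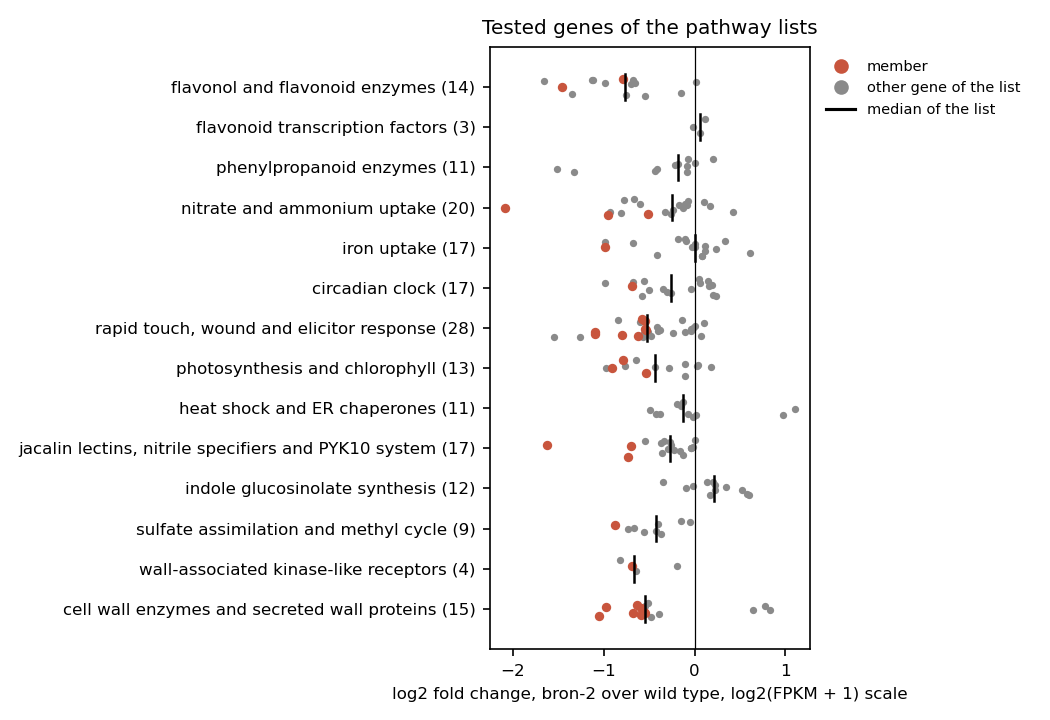
log2 fold change of *bron-2* over WT on the log2(FPKM + 1) scale (horizontal) for every tested gene of each list, members in red, other genes in grey and the list median as a bar. The flavonoid enzymes lie mostly left of 0, the cell wall list has a lower and a higher set, and the indole glucosinolate list lies mostly right of 0. The lists were drawn up with earlier results known. Of the 15 tested cell wall genes, 8 were members and 3 clearly higher genes, so this split follows in large part from the choice.

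Within each genotype the members fell into different patterns across replicates. For PSBS, UGT89C1 and CHI, the deviations from the genotype mean correlated with the mean of the flavonol enzymes with r of 1.0, 0.98 and 0.95 over 6 libraries, the gene itself left out of the mean. With the mean of the sulfate list, r was 0.97, 0.96 and 0.97 for the same genes, so the pattern was not particular to flavonol enzymes. An r of at least 0.80 with the flavonol enzymes was reached by 20 members (16.8%), including MSRB6, SKS15, NSP3 and CHLH, and by 13.0% of the other genes of at least 5 FPKM. AMT1;2, BBE8 and OXS3 had r of 0.99, 0.96 and 0.87 with the nitrate and ammonium list, where 9.24% of the members and 9.56% of the other genes reached 0.80. WRKY40 and ERF6 had r of 0.99 and 0.93 with the touch and elicitor list, where 9.24% of the members, some of them on that list, and 1.91% of the other genes did. The 6 points of each correlation share their libraries and hold 3 deviations per genotype that sum to 0, so these values are descriptions. The list means moved with the library: flavonol enzymes deviated by 0.43, 0.11 and -0.54 on the log2 scale in WT replicates 1, 2 and 3 and by 0.30, 0.01 and -0.31 in *bron-2* replicates 1, 2 and 3.

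**Figure D5:**
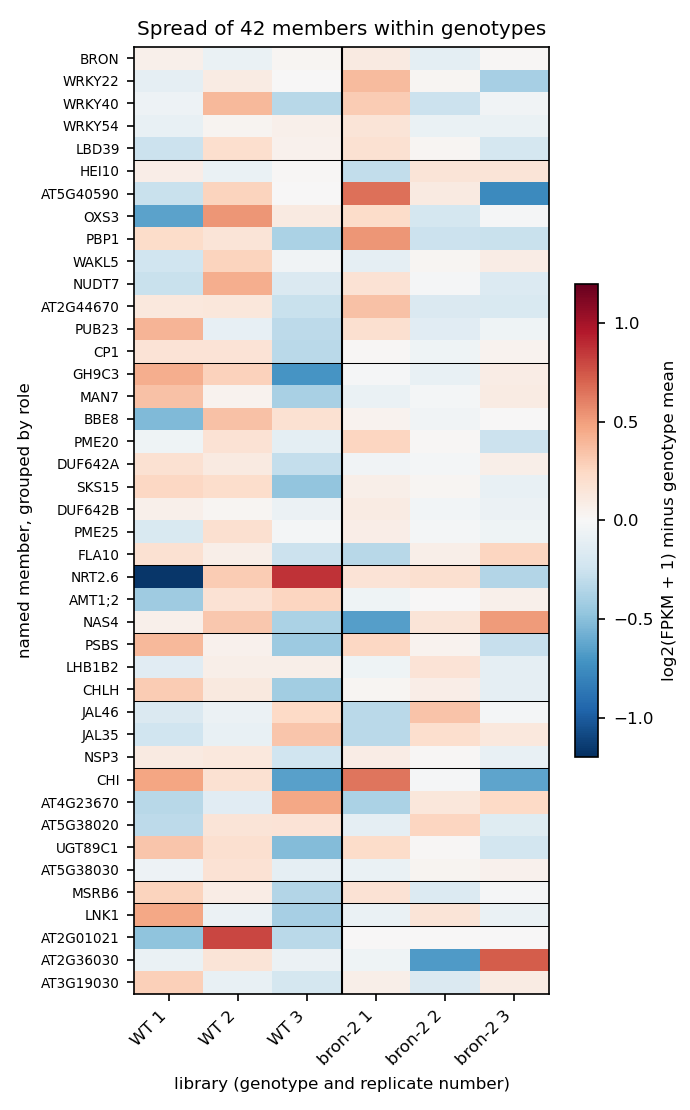
Deviation of log2(FPKM + 1) from the genotype mean (color) for the 42 named members (rows, grouped by role) in the 6 libraries (columns, 3 of each genotype). CHI, PSBS and UGT89C1 are high in replicate 1 and low in replicate 3 of both genotypes, NRT2.6 is low in WT replicate 1, and *bron-2* values of most wall genes are close to their mean.

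Uncharacterized genes included some of the lowest ratios. AT2G36030 was at 7.91, 9.45 and 7.97 FPKM in the WT and at 2.85, 1.49 and 5.59 FPKM in *bron-2*, and it overlaps AT2G36026 on the opposite strand. AT3G19030, the member of highest WT level, was at 273, 210 and 193 FPKM in the WT and at 165, 140 and 168 FPKM in *bron-2*. Its lowest WT library was above the highest mutant library by 25 FPKM, while for FLA10, a fasciclin-like arabinogalactan protein, the gap was 0.0224 FPKM. SADHU3-2, whose name is that of a retroelement family, had a ratio of 0.494.

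Position and exon number were not used by the rule, while transcript length enters FPKM, on which the rule acts. The members lay on all 5 chromosomes, with 25, 18, 24, 24 and 28 on chromosomes 1 to 5, and 4 of the 119 (3.36%) had another member within 5 gene positions, against 3.51% of the other genes of at least 5 FPKM with a member that near. The 2 neighbouring pairs were DUF642A with DUF642B, and AT5G38020, a methyltransferase, with AT5G38030, a MATE efflux protein, whose proteins are 13.4% identical. A single annotated exon was found in 37 of the 119 members (31.1%) and in 13.8% of the other genes of at least 5 FPKM, with a median of 3 and 5 exon blocks and 1340 and 1770 exon bases. These shares were not tested.

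Markers of the cell types in the tip were summed for each library, and none of the 36 marker genes was a member. The 5 stem cell niche and meristem markers summed to 33.7 to 37.7 FPKM in the WT and 34.6 to 39 FPKM in *bron-2*, a sum made up mostly of SCR and SHR, with ratios of 1.04 and 1.07. PLT1 and PLT2, regulators of the root meristem, had ratios of 0.887 and 0.754, with every *bron-2* library below every WT library at levels of 0.506 to 1.63 FPKM. WOX5, which marks the quiescent centre, was under 1 FPKM in every library, with a ratio of 0.813 and overlapping groups. The part of PLT1 and PLT2 in the members was not tested. The root hair markers summed to 797 to 868 FPKM in the WT and 736 to 965 FPKM in *bron-2*, and the xylem markers to 37.1 to 49.3 and 35.9 to 53.3 FPKM. The summed level of the root cap markers was 80.6 to 95.8 FPKM in the WT and 71.7 to 83.8 FPKM in *bron-2*, and that of the dividing-cell markers 30 to 40.9 and 24.3 to 37 FPKM. The endodermis markers with Casparian strip genes were at 1820 to 3060 FPKM in the WT and 2660 to 3570 FPKM in *bron-2*, and the median ratio of these 7 genes was 1.24. The part of this difference in the members was not tested.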

How the data were processed

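The deposited values are FPKM, which the authors made by mapping single-end reads of 100 bases to TAIR10 using Cufflinks, per the labels and the paper's methods. The Cufflinks version and the strand setting are not given in the sources used here. FPKM are not counts, so the authors' count test (PoissonSeq) was not used. The table holds 33560 genes in 6 columns, no 2 of them identical. The WT columns and all replicate numbers were matched by name. The mutant columns carry a code in place of the name *bron-2*. They were matched through the paper's supplement, which heads the same values with the mutant's name.

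The members were selected by the stated rule on FPKM, and limma 3.58.1 in R 4.3.3 was fitted on log2(FPKM + 1) with eBayes and its trend option (two-sided), for the 17107 genes averaging 1 FPKM or more. The fit was tested on simulated data. Gene models, windows before the start and 31-base repeats came from RefSeq TAIR10.1, where 32826 of the gene identifiers were found; no protein was printed. The gene lists, marker lists and role groups, like the members, were chosen with earlier results of these data known. Named genes are BRON, the 12 members of lowest ratio, up to 6 members of lowest ratio in each list, the 5 of highest WT level, the genes at the 0.70 threshold and neighbouring members, and any further gene was named with its values in view. The methods call the replicates biological. The p-values set the genotype difference against the spread between libraries within genotypes, which eBayes moderates over the tested genes. The alternatives were other FPKM floors, ratios, pseudocounts, filters and scalings, a fit without trend, the replicate number as a block, and each library left out.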

Additional observations from a re-analysis of the deposited data

How the results depend on the processing

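The number of clearly lower genes, 119, was 38 at a ratio of at most 0.60, 389 at 0.80, 203 with a floor of 1 FPKM and 74 with a floor of 10 FPKM. A pseudocount of 0.1 gave 151, scaling by the median log ratio 111 and quantile normalization 108. Leaving out single libraries, which makes groups without overlap easier to reach, gave counts from 117 to 253. The lowest was without WT replicate 2 and the highest without WT replicate 3. The clearly higher genes, 50, became 18, 230, 92 and 33 under the same ratios and floors, and between 55 and 205 with a library left out. Genes called lower by limma (985) stayed between 668 and 1183 without single libraries, and list genes called lower (71) between 46 and 85, the lowest without WT replicate 2. The labels give no pairing by replicate number. Deviations of same-numbered libraries correlated with r of 0.123, -0.0133 and 0.186, and those of differently numbered libraries with a mean r of -0.049 and a highest of 0.118, so that not every pair passed 0.1 and the numbers were not used as a block. With the number as a replicate block, limma called 1293 genes and 90 list genes lower. Asking all 3 same-numbered ratios to pass 0.70, an alternative of the replicate block kind added after seeing the data, gave 44 lower genes, 34 of them members, and 20 higher genes. Of 378 recomputed log2 ratios of named members, 374 moved by less than 1 SD and 0 changed sign; AT2G01021, BRON and HEI10 moved with a pseudocount of 0.1 (to -7.97, -3.85 and -3.29), and AT2G01021 also without WT replicate 2 (-4.19).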
